A study of Mus musculus with 8 samples.

Results

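The genes described here are 10 members of the insulin-like growth factor (IGF) and insulin system, taken by symbol from the 23355 genes of the deposited count table: the binding protein genes Igfbp2, Igfbp3, Igfbp4, Igfbp5, Igfbp6 and Igfbp7, the receptor genes Igf1r and Insr, and the receptor substrate genes Irs1 and Irs2. Every one of the 10 had a row and passed the filter on low counts, so 10 of 10 were tested. Wild type C57BL/6 mice, specific pathogen free (SPF) and untreated, gave epithelial cells from the lining of the cheek (buccal epithelium): 4 animals of 8 weeks and 4 of 1 week, with 1 library per animal. The epithelium was detached with dispase II and its cells were sorted by flow cytometry before RNA extraction. The sort gate, the sex of the mice and any batch are not given in the labels. The 1 comparison of the series, 8 weeks with 1 week, asks how transcripts of the oral epithelium differ between mice of these ages.

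IGF1 and IGF2 act through the IGF1 receptor, a tyrosine kinase closely related to the insulin receptor, and the 2 receptors can also pair with each other. Both receptors phosphorylate the docking proteins IRS1 and IRS2, which recruit PI3 kinase and switch on AKT and TOR, while AKT keeps the FOXO transcription factors out of the nucleus. IGF binding proteins are secreted carriers that hold IGFs outside the cell and decide, together with the proteases that cut them, how much ligand reaches the receptor. In stratified epithelia this system is known for its part in the growth of basal keratinocytes.

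At 8 weeks Insr was higher, and it was the 1 member that passed the test, with a log2 fold change of 0.65 (adjusted p = 0.0415, SE 0.17, edgeR quasi-likelihood F test). Igfbp2, the most abundant member, and Igfbp3 had log2 fold changes of -0.64 (adjusted p = 0.0501, SE 0.18) and -0.58 (adjusted p = 0.0571, SE 0.17), just outside the threshold of 0.05, although all 4 libraries of 8 weeks were below all 4 of 1 week for both. The other 7 members were not called. The test called 6.55% of 14533 genes, 3.33% as higher and 3.22% as lower, so 1 of 10 members is close to that background. Of the members 0 were called lower by edgeR, with 3 lower and 2 higher at an unadjusted p under 0.05, and 2 were called lower both by the Wald test of DESeq2 and by limma-voom. Over all 14533 tested genes 2080 were lower and 1961 higher at that unadjusted p. DESeq2 called 1082 of them lower and limma-voom 868. Libraries without overlap between the ages were seen for 2 of the 10 members and for 14.8% of all tested genes.

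**Figure D1:**
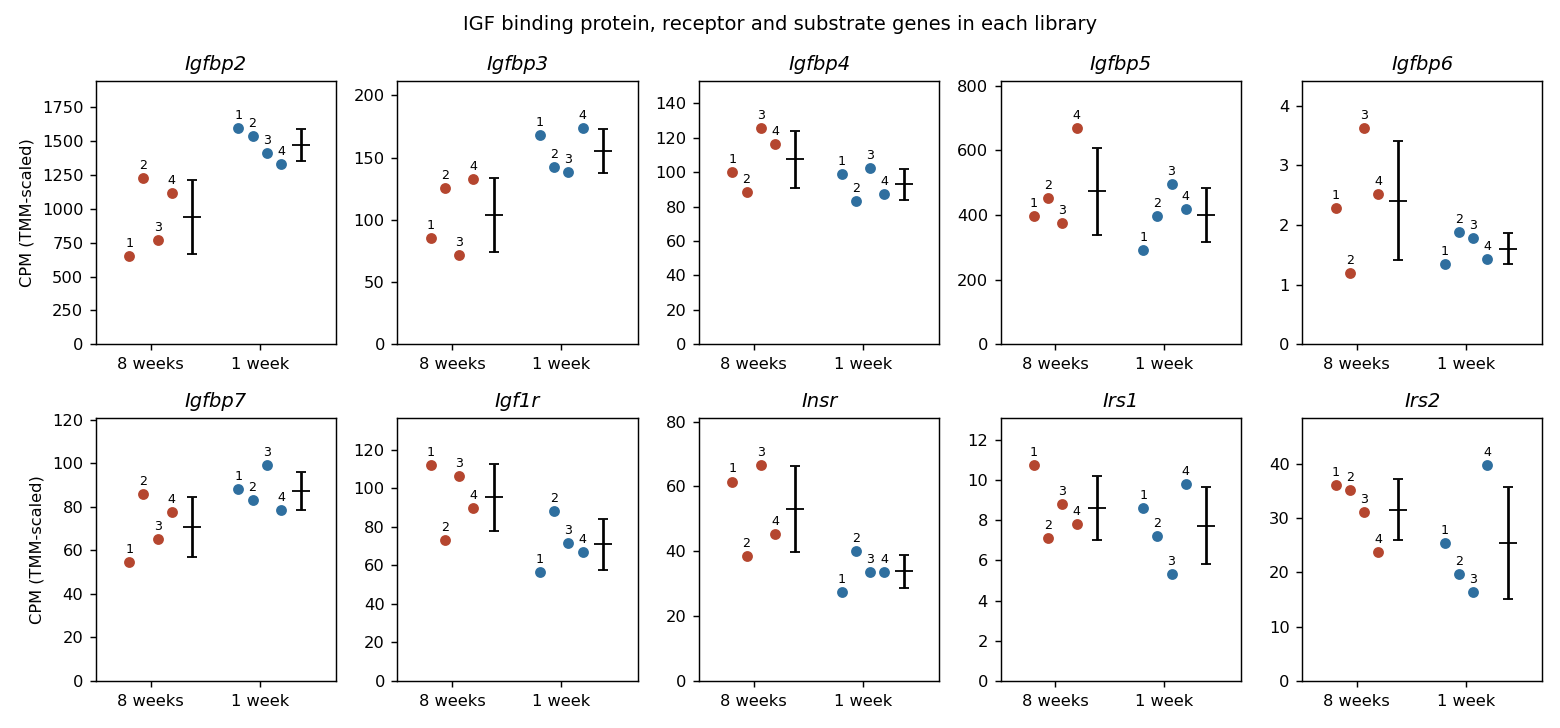
Level of each of the 10 genes in CPM (counts scaled to the TMM-adjusted size of the library, linear axes from 0) in the 4 libraries of 8 weeks (red) and the 4 of 1 week (blue). Numbers are the replicates, and the bar beside each group is the mean ± SD. For Igfbp2 and Igfbp3 every red point is below every blue point, and in the panels of Igfbp2, Igfbp3, Igf1r and Insr the libraries 8 weeks 1 and 8 weeks 3 are the farthest from the 1 week libraries.

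The libraries held 11747783 to 16807773 counts. The cells carried the markers of oral epithelium: the summed level of 9 epithelial markers, led by Krt5, Krt14 and Krt13, was 33100 to 41110 CPM at 8 weeks and 38310 to 43960 CPM at 1 week. Suprabasal keratinocyte markers summed to 11830 to 14780 CPM at 8 weeks and 10770 to 13450 CPM at 1 week. Pericyte and smooth muscle markers summed to 128 to 168 CPM at 8 weeks and 107 to 134 CPM at 1 week. Most of that was Cspg4, not called, and Notch3, called higher (log2 fold change 0.62, adjusted p = 0.0374, edgeR). Acta2 went the other way without a call (-0.93, adjusted p = 0.107, edgeR), and Rgs5, Myh11 and Des were at no more than 1.94 CPM. Red cell markers summed to 22.9 to 71.5 CPM at 8 weeks and 3.38 to 13.7 CPM at 1 week. Of these 5 genes 3 were called higher: Hbb-bs, Hba-a1 and Hba-a2 (adjusted p = 0.0035, 0.015 and 0.012, edgeR). Markers of skeletal muscle, myeloid and Langerhans cells, T cells, melanocytes and salivary gland each summed to at most 5.73 CPM in any library. Libraries differed in how levels depended on transcript length. The slope of log2 expression on the log2 length of the longest annotated transcript, taken over 10366 protein-coding genes, was 0.20, -0.02, 0.15 and 0.03 per doubling in 8 weeks 1 to 8 weeks 4, and -0.17, -0.05, -0.07 and -0.07 in 1 week 1 to 1 week 4. The steepest slopes were those of 8 weeks 1, 8 weeks 3 and 1 week 1. This bears on the members because their longest transcripts run from 1112 bases (Igfbp6) to 11409 bases (Igf1r). The fold changes of the members, and of the pathway genes named for their p, are therefore also given after a correction. It removes the trend on transcript length and GC content from each library. Marker genes, Pappa and the genes most like Insr are given without it. So are levels, sums, shares and ratios per kilobase, unless stated.

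Promoter sequence is shown for Igfbp2 and Igfbp3, the members whose libraries did not overlap between the ages, and for Igfbp5, the neighbour of Igfbp2. The 250 bases before the start come from RefSeq on GRCm38.p6, on the strand of the gene, and capitals mark the GC box GGGCGG in either orientation. Of the 10 members 9 had an entry; Insr is named only.
Igfbp2 (chr1:72824230-72824479, plus strand): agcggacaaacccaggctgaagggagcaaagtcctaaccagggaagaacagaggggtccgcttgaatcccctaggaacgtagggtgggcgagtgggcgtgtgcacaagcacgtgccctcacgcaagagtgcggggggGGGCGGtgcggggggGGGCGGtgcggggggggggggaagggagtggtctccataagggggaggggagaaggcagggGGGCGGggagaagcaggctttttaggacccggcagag
Igfbp3 (chr11:7213924-7214173, minus strand): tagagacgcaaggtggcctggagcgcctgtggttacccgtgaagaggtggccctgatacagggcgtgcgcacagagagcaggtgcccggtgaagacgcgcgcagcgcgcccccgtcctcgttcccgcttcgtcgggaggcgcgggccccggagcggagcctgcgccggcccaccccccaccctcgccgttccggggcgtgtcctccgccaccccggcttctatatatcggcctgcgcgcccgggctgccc
Igfbp5 (chr1:72874866-72875115, minus strand): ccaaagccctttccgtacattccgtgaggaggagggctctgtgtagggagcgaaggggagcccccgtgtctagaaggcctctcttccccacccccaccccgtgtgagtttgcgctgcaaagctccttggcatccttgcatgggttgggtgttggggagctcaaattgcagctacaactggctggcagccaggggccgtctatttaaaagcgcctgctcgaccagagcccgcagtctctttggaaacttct
The GC box was found at 3 places before Igfbp2 and at 0 before Igfbp3 and Igfbp5, and 32.7% of 32851 promoters of the same length hold it. It also stood before Igfbp7 (4 places), Igf1r (2), Irs1 (2) and Irs2 (1), and at 0 places before Igfbp4 and Igfbp6. Searched on both strands, TATAAA was in the windows of Igfbp4 and Igfbp6 (12.4% of all promoters) and the FOXO core TGTTTAC in those of 0 members (3.2% of all promoters). Igfbp2 and Igfbp5 lie tail to tail on chromosome 1, with 5457 bases between their annotated ends.

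Igfbp2 encodes a carrier of IGF1 and IGF2 that also binds cells through an integrin-binding motif (ENSMUSG00000039323, GRCm38 chromosome 1, 72824503 to 72852474, plus strand). It stood at 648, 1228, 771 and 1114 CPM in 8 weeks 1 to 8 weeks 4, against 1593, 1539, 1410 and 1332 CPM in 1 week 1 to 1 week 4. The highest library of 8 weeks remained under the lowest of 1 week, and the 8 weeks libraries were spread much more widely (940.3 ± 275 CPM at 8 weeks and 1469 ± 119 CPM at 1 week, SD, n = 4 each). By mean CPM it ranked 66 among the 14533 tested genes. In the authors' deposited table it passed the threshold, with a log2 fold change of -0.64 (adjusted p = 0.00817). With each library left out in turn its log2 fold change ran from -0.81 to -0.50, and it was called in 1 of 8 fits, without 8 weeks 2 (adjusted p = 0.0204, edgeR; 0.0204 to 0.148 over the 8 fits). After the length and GC correction it was -0.49 (adjusted p = 0.0606), with 760 to 1139 CPM at 8 weeks and 1271 to 1464 CPM at 1 week, still without overlap. Without 8 weeks 1, 8 weeks 3 and 1 week 1 it was -0.28 (adjusted p = 0.482, edgeR). That fit, on fewer libraries and chosen after seeing the data, called 0 of 14981 genes. Its adjusted p, given here and below, therefore sets no gene apart.

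Igfbp3 encodes the main carrier of IGFs in the circulation, which is also made locally in epithelia (ENSMUSG00000020427, chromosome 11, 7206086 to 7213923, minus strand). Its levels were 85.3, 125, 71.9 and 132 CPM in 8 weeks 1 to 8 weeks 4, against 168, 142, 138 and 173 CPM in 1 week 1 to 1 week 4. As for Igfbp2, 8 weeks 1 and 8 weeks 3 were lowest, and 8 weeks 2 and 8 weeks 4 were close to the lower 1 week libraries. The authors' deposited table called it (log2 fold change -0.58, adjusted p = 0.025). Leaving out 1 library gave log2 fold changes of -0.72 to -0.44, with a call without 8 weeks 2 (adjusted p = 0.0312, edgeR) or 8 weeks 4 (0.0494) and a highest adjusted p of 0.166. After the length and GC correction it was -0.50 (adjusted p = 0.0877). Without 8 weeks 1, 8 weeks 3 and 1 week 1 it was -0.23 (adjusted p = 0.639, edgeR), in the fit that called 0 genes. The ratio of Igfbp2 to Igfbp3, each as CPM per kilobase of merged exons, was 12.9 to 18.2 at 8 weeks and 13.02 to 18.3 at 1 week, so the ratio overlapped almost fully between the ages.

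Among markers of other cell types, the fibroblast gene Dcn was lower at 8 weeks, as 1 of the 8 fibroblast markers with a row. Of 9 listed, 8 had a row, and their summed level was 414 to 790 CPM at 8 weeks and 936 to 1175 CPM at 1 week. Nearly all of it was Dcn, the proteoglycan gene decorin, with 398 to 775 CPM at 8 weeks and 923 to 1158 CPM at 1 week (adjusted p = 0.0231), followed by Thy1, which was not called (log2 fold change -0.14, adjusted p = 0.789). The defining collagen gene Col1a1 was at 0.33 to 0.65 CPM at 8 weeks and 0.09 to 0.89 CPM at 1 week, Col1a2 and Pdgfra at no more than 0.52 CPM in any library, and Col3a1 at 0 CPM in 1 library of each age. The summed level of 8 basal keratinocyte markers was 22960, 30980, 23840 and 30240 CPM in 8 weeks 1 to 8 weeks 4 and 28810 to 32610 CPM at 1 week, with the lowest sums in 8 weeks 1 and 8 weeks 3. The keratin genes Krt5, Krt14 and Krt15 carried those low sums. Other genes of the list did not share them: Itga6, an integrin gene, had 475, 376, 410 and 405 CPM in 8 weeks 1 to 8 weeks 4, and Dst, a hemidesmosome gene, was called higher at 8 weeks (log2 fold change 0.69, adjusted p = 0.014). These marker values, with the call of Dst, are without the length and GC correction. The part of either marker list in the binding protein levels was not tested. Bulk RNA cannot tell fewer cells of a type from less RNA per cell.

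Igfbp5 encodes the binding protein with a strong affinity for extracellular matrix (ENSMUSG00000026185, chromosome 1, 72857932 to 72874884, minus strand). It had 396, 453, 375 and 667 CPM in 8 weeks 1 to 8 weeks 4, against 291, 396, 494 and 419 CPM in 1 week 1 to 1 week 4. The ages overlapped, with 8 weeks 4 the highest and 1 week 1 the lowest, and the gene was not called (log2 fold change 0.24, adjusted p = 0.427, SE 0.19). Without 8 weeks 4 the log2 fold change was 0.03, without 1 week 1 it was 0.12, and after the length and GC correction 0.09. The ratio of Igfbp2 to its neighbour Igfbp5, per kilobase, was 5.32 to 8.81 at 8 weeks and 9.27 to 17.8 at 1 week. With the length and GC trend removed the ratio was 5.63 to 8.53 at 8 weeks and 8.27 to 14.5 at 1 week, and the ages then overlapped.

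The remaining binding proteins, Igfbp4, Igfbp6 and Igfbp7, were not called. Igfbp4 encodes a carrier that in other tissues mostly restrains IGF action until it is cut by the protease PAPP-A. It stood at 88.3 to 125 CPM at 8 weeks and 83.4 to 102 CPM at 1 week, with overlap (log2 fold change 0.21, adjusted p = 0.269, SE 0.12; 0.17 after the length and GC correction). Igfbp7 encodes a related secreted protein with low affinity for IGFs, known as a marker of vessels in many tissues. It was at 54.6, 85.7, 65.2 and 77.5 CPM in 8 weeks 1 to 8 weeks 4, against 88.2, 83.1, 99.1 and 78.4 CPM in 1 week 1 to 1 week 4, a log2 fold change of -0.30 (adjusted p = 0.161, SE 0.13) that was -0.09 after the length and GC correction. Endothelial markers summed to 7.26 to 14.9 CPM at 8 weeks and 8.55 to 12.7 CPM at 1 week. The part of vessel cells in the Igfbp7 level was not tested. Igfbp6, whose protein prefers IGF2, was scarce, with 16 to 56 counts per library at 8 weeks and 15 to 25 at 1 week. Its 2.41 ± 0.99 CPM at 8 weeks and 1.61 ± 0.26 CPM at 1 week (SD, n = 4 each) gave a log2 fold change of 0.58 with an SE of 0.37 (adjusted p = 0.318), and that fold change was 0.85 after the length and GC correction.

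Per kilobase of merged exons, without the length and GC correction, the order of the binding proteins was almost the same at both ages. At 8 weeks Igfbp2 led with 509 ± 149 CPM per kilobase, ahead of Igfbp5 (78.7 ± 22.2), Igfbp7 (58.5 ± 11.3), Igfbp3 (33.1 ± 9.47), Igfbp4 (24.4 ± 3.74) and Igfbp6 (2.17 ± 0.89; SD, n = 4). At 1 week Igfbp2 stood at 795 ± 64.4 CPM per kilobase, and Igfbp7 (72.1 ± 7.34) came before Igfbp5 (66.6 ± 14.0), Igfbp3 (49.7 ± 5.66), Igfbp4 (21.1 ± 2.06) and Igfbp6 (1.44 ± 0.24). The ranges of Igfbp5 and Igfbp7 overlapped at both ages. Without the correction Igfbp5 was the higher within each library of 8 weeks, with no such order within those of 1 week. Their longest transcripts have 6006 and 1200 bases, and the order within libraries was not examined after the correction. Igfbp3 and Igfbp4 overlapped at 8 weeks and were apart at 1 week. The 6 together summed to 514, 872, 588 and 849 CPM per kilobase in 8 weeks 1 to 8 weeks 4, and to 1061, 1034, 997 and 932 in 1 week 1 to 1 week 4. The share of Igfbp2 in that sum was 68.3% to 76.2% at 8 weeks and 76.6% to 81.3% at 1 week, while that of Igfbp5 was 8.65% to 13.1% at 8 weeks and 4.56% to 8.26% at 1 week. These shares are without the length and GC correction, after which the ratio of Igfbp2 to Igfbp5 overlapped between the ages.

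**Figure D2:**
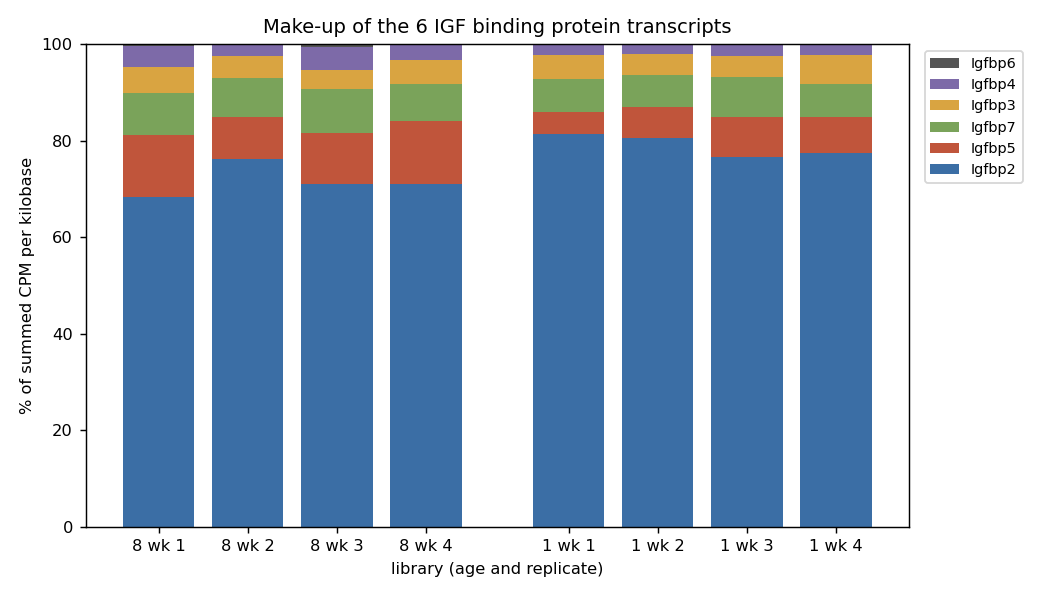
Share of each binding protein gene in the summed level of the 6 (CPM per kilobase of merged exons, in percent), in 4 libraries of 8 weeks (left) and 4 of 1 week (right). Igfbp2 is the largest share in each bar, at 68.3% to 76.2% at 8 weeks and 76.6% to 81.3% at 1 week, and the Igfbp5 share is larger in every bar of 8 weeks. The shares are without the length and GC correction.

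Insr, the insulin receptor gene (ENSMUSG00000005534, chromosome 8, 3122061 to 3279617, minus strand), had 61.5, 38.5, 66.6 and 45.4 CPM in 8 weeks 1 to 8 weeks 4, against 27.6, 40.1, 33.7 and 33.7 CPM in 1 week 1 to 1 week 4. It averaged 53.0 ± 13.2 CPM at 8 weeks and 33.8 ± 5.14 CPM at 1 week (SD, n = 4 each), which is 1.57-fold higher at 8 weeks. The ages overlapped, because 8 weeks 2 was below 1 week 2, and 8 weeks 1 and 8 weeks 3 were far above the rest. The authors' deposited table also called it (log2 fold change 0.65, adjusted p = 0.00968). The call was lost without 8 weeks 1, 8 weeks 3, 8 weeks 4, 1 week 1, 1 week 3 or 1 week 4 (adjusted p = 0.128, 0.125, 0.0532, 0.124, 0.0669 and 0.0614, edgeR) and was kept without 8 weeks 2 or 1 week 2. After the length and GC correction the log2 fold change was 0.37 (adjusted p = 0.115), at 38.7 to 58.3 CPM in 8 weeks and 33.1 to 42.0 CPM in 1 week libraries. Without 8 weeks 1, 8 weeks 3 and 1 week 1 it was 0.23 (adjusted p = 0.69, edgeR), in the fit that called 0 genes.

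Igf1r, the IGF1 receptor gene (ENSMUSG00000005533, chromosome 7, 67952827 to 68233668, plus strand), was likewise highest in 8 weeks 1 and 8 weeks 3 and lowest in 1 week 1. It had 112, 73.2, 106 and 89.8 CPM in 8 weeks 1 to 8 weeks 4, against 56.4, 88.1, 71.8 and 67.0 CPM in 1 week 1 to 1 week 4. The ages overlapped through 8 weeks 2 and 1 week 2, and the log2 fold change of 0.43 (adjusted p = 0.0919, SE 0.15) did not pass. Without 8 weeks 2 it passed (0.53, adjusted p = 0.035, edgeR), and after the length and GC correction it was 0.10 (adjusted p = 0.579). Per kilobase, Insr was 0.62 to 0.76 of Igf1r at 8 weeks and 0.56 to 0.61 at 1 week, so Igf1r was the more abundant receptor transcript in all 8 libraries.

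**Figure D3:**
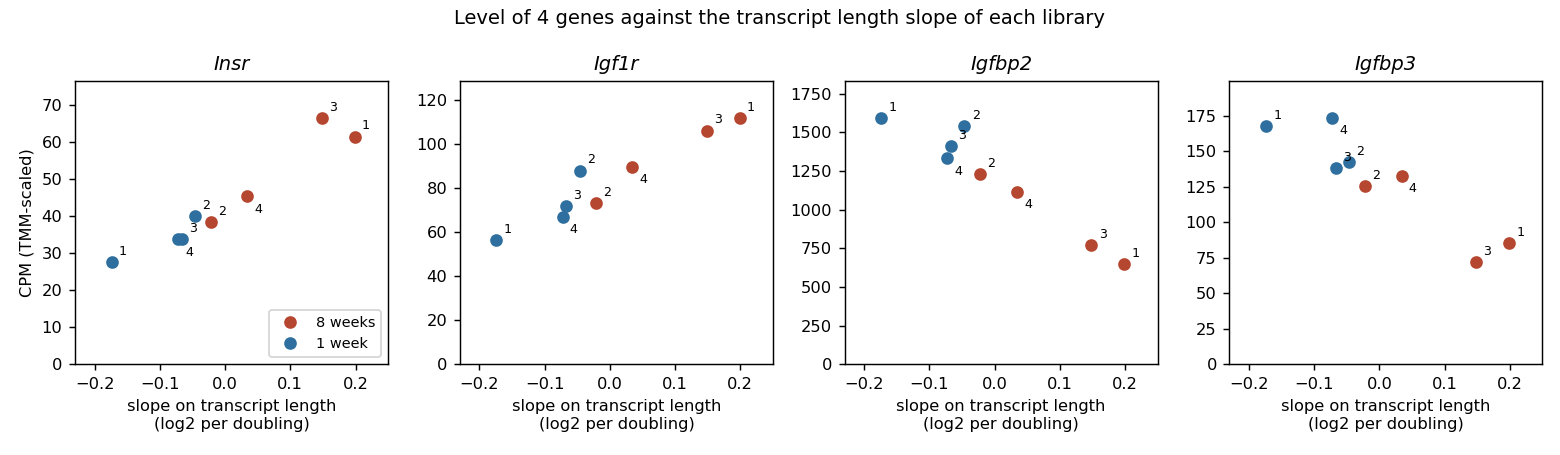
Level of Insr, Igf1r, Igfbp2 and Igfbp3 (CPM, linear axes from 0) in each library against the slope of that library on transcript length (log2 per doubling), with 8 weeks in red, 1 week in blue and the replicate beside each point. The receptor genes are highest and the binding protein genes lowest in 8 weeks 1 and 8 weeks 3, where the slopes are 0.20 and 0.15, and Insr and Igf1r are lowest in 1 week 1, where it is -0.17.

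In the plot of levels against slope, Insr and Igf1r, with longest transcripts of 9355 and 11409 bases, have their highest levels in the 2 libraries with the steepest positive slopes, while Igfbp2 and Igfbp3, with 1307 and 2421 bases, have their lowest levels there. The part of the length trend in these levels was not tested beyond the correction. The libraries nearest to a slope of 0 were 8 weeks 2 and 8 weeks 4 at 8 weeks and 1 week 2 at 1 week. At slopes of -0.02 and 0.03, Insr stood at 38.5 CPM in 8 weeks 2 and 45.4 CPM in 8 weeks 4. At 1 week it was 40.1 CPM in 1 week 2 (slope -0.05), and 33.7 CPM in both 1 week 3 and 1 week 4 (slopes of -0.07). Igfbp2 stood at 1228 CPM in 8 weeks 2 and 1114 CPM in 8 weeks 4. It was at 1539, 1410 and 1332 CPM in 1 week 2, 1 week 3 and 1 week 4. The slope differs between the ages as well as within them, so age and the length trend cannot be fully told apart in these libraries.

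Irs2, the docking protein gene that is itself a known target of FOXO factors, had 36.1, 35.2, 31.2 and 23.7 CPM in 8 weeks 1 to 8 weeks 4, against 25.5, 19.7, 16.5 and 39.8 CPM in 1 week 1 to 1 week 4. The highest of all 8 libraries was 1 week 4, so the ages overlapped (log2 fold change 0.32, adjusted p = 0.377, SE 0.23). Without 1 week 4 it was 0.62 (adjusted p = 0.0579, edgeR), and after the length and GC correction 0.10. Irs1, the other docking protein gene, was at 10.7, 7.11, 8.79 and 7.79 CPM in 8 weeks 1 to 8 weeks 4, against 8.59, 7.23, 5.33 and 9.79 CPM in 1 week 1 to 1 week 4. It overlapped between the ages and was not called (log2 fold change 0.16, adjusted p = 0.667, SE 0.22), and its sign turned to -0.14 after the length and GC correction. Per kilobase Irs1 was 0.14 to 0.23 of Irs2 at 8 weeks and 0.17 to 0.25 at 1 week, making Irs2 the more abundant substrate transcript in every library. The annotated gene Gm9747 shares 2822 exonic bases with Irs1 on the opposite strand, 9530052E02Rik shares 162 with Irs2, and Polr2b shares 85 with Igfbp7. How counting treated strand is not given in the sources used here, and reads from such partners can be part of the counts.

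**Figure D4:**
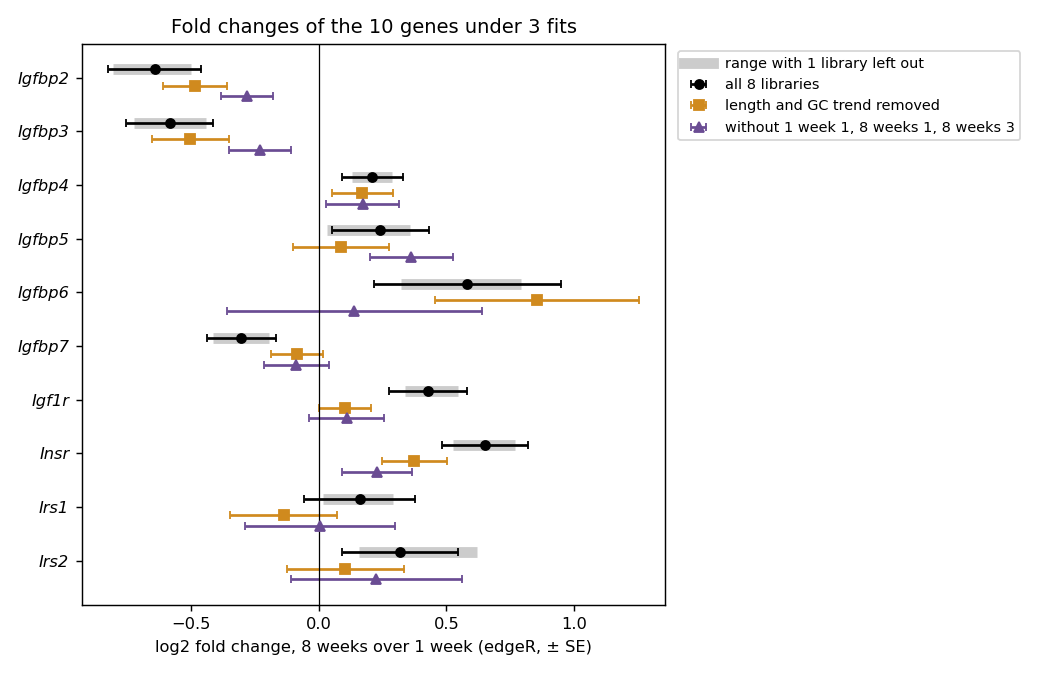
Log2 fold change (8 weeks over 1 week, edgeR) with its SE for each gene, with all 8 libraries (black), with the trend on transcript length and GC content removed (orange) and without 1 week 1, 8 weeks 1 and 8 weeks 3 (purple); grey bars span the 8 fits with 1 library left out. Igfbp2, Igfbp3 and Insr keep their direction in each fit shown and move toward 0 in the orange and purple ones, while Irs1 changes sign in the orange one.

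The genes whose level across the 8 libraries was most like that of Insr were Ern1, Nfat5 and Tnrc6c, among 10459 other genes of at least 5 CPM. Likeness was measured as the mean absolute difference of log2 CPM, each gene centred on its own mean, and was 0.07, 0.08 and 0.09. Ern1, the gene of the endoplasmic reticulum stress sensor IRE1, averaged 40.01 ± 8.92 CPM at 8 weeks and 24.5 ± 2.95 CPM at 1 week (SD, n = 4 each). Nfat5 encodes a transcription factor of the response to high salt, and Tnrc6c a protein of microRNA silencing.

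The ligands were barely detected in the sorted cells. Igf1 had 7, 2, 7 and 2 counts in 8 weeks 1 to 8 weeks 4, against 13, 2, 20 and 5 in 1 week 1 to 1 week 4, and Igf2 had 4 to 7 counts per library at 8 weeks and 7 to 11 at 1 week. Both were under the filter and were not tested. Ins1, Ins2, Igfbp1 and Igfbpl1 were listed but had no row under these symbols. Of the 13 ligand, carrier and protease genes listed, 5 were tested, and 1 was called. Igf2r, whose receptor clears IGF2 without signalling, had 137, 110, 123 and 109 CPM in 8 weeks 1 to 8 weeks 4, against 78.4, 96.2, 98.6 and 91.4 CPM in 1 week 1 to 1 week 4, without overlap (log2 fold change 0.39, adjusted p = 0.0474, SE 0.11). Its call was kept in 1 of 8 fits with a library left out, the one without 8 weeks 2 (adjusted p = 0.0347, edgeR; highest 0.148), and was lost after the length and GC correction (0.11, adjusted p = 0.376). Pappa, the gene of the protease that cuts IGFBP4 and IGFBP5, is named after its values were seen. It was abundant at both ages, with 345 ± 99.9 CPM at 8 weeks and 324.5 ± 42.8 CPM at 1 week (SD, n = 4 each; adjusted p = 0.771, edgeR). Stc1, which encodes an inhibitor of PAPP-A, and Htra1, a serine protease gene, did not pass the test (log2 fold changes -0.23 and -0.07, adjusted p = 0.688 and 0.742); after the length and GC correction they were -0.25 and 0.05, and Htra1 was at 0.02 with library size alone.

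Further along the pathway 70 of 79 listed genes were tested, and 5 were called higher and 1 lower, beside 6.55% called of all genes. Their median log2 fold change was 0.09, against -0.00 over all tested genes. Among 18 adaptors and inhibitors at the receptor 2 rose. Enpp1, whose product can inhibit the insulin receptor, had 23.3, 18.7, 17.8 and 12.9 CPM in 8 weeks 1 to 8 weeks 4, against 11.3, 6.63, 10.6 and 8.63 CPM in 1 week 1 to 1 week 4 (log2 fold change 0.98, adjusted p = 0.0234, SE 0.21). All libraries of 8 weeks were above all of 1 week, and the call was lost without 8 weeks 1 (adjusted p = 0.0821, edgeR) or 8 weeks 3 (0.06) and after the length and GC correction (0.78, adjusted p = 0.059). Gab1, a docking protein gene, averaged 38.1 ± 4.10 CPM at 8 weeks and 28.1 ± 0.97 CPM at 1 week (SD, n = 4 each; log2 fold change 0.44, adjusted p = 0.033). Its call was lost without 8 weeks 1, 8 weeks 3, 8 weeks 4, 1 week 1, 1 week 2 or 1 week 3 (highest adjusted p = 0.107, edgeR) and after the correction (0.32, adjusted p = 0.071). Socs1, a feedback inhibitor gene, had a log2 fold change of -1.18 (SE 0.37) that did not pass (adjusted p = 0.0697), and -1.16 after the correction.

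Of 18 PI3 kinase and AKT genes 0 were called by edgeR, with 6 higher and 1 lower at an unadjusted p under 0.05, while DESeq2 and limma-voom each called 2 higher. Over all 14533 tested genes, 1961 were higher and 2080 lower at that unadjusted p, and DESeq2 and limma-voom called 987 and 772 higher. Of the 18, those with the smallest p were Gsk3b, Pik3r1 and Gsk3a, kinase and regulatory subunit genes. Their log2 fold changes were 0.37, 0.50 and -0.34 (adjusted p = 0.0507, 0.0575 and 0.104, edgeR). After the length and GC correction Gsk3b was at 0.13, Pik3r1 at 0.29 and Gsk3a at -0.27 (adjusted p = 0.301, 0.184 and 0.179, edgeR). Of 15 TOR genes 1 fell. Ddit4, whose product REDD1 restrains TOR under stress, had 23, 33.0, 25.9 and 30.2 CPM in 8 weeks 1 to 8 weeks 4, against 56.1, 58.1, 46.5 and 41.2 CPM in 1 week 1 to 1 week 4 (log2 fold change -0.85, adjusted p = 0.0107, SE 0.14). The ages did not overlap, and Ddit4 kept its call in all 8 fits with a library left out (highest adjusted p = 0.0422, edgeR) and after the length and GC correction (-0.71, adjusted p = 0.011). With libraries blocked by the number in their name, Ddit4 was at -0.85 and was not called (adjusted p = 0.0638, edgeR). Without 8 weeks 1, 8 weeks 3 and 1 week 1 it was -0.62 (adjusted p = 0.319, edgeR), in the fit that called 0 genes. Eif4e, the cap-binding protein gene, and Mtor, the TOR kinase gene, did not pass the test (log2 fold changes -0.36 and 0.37, adjusted p = 0.056 and 0.07). After the length and GC correction Eif4e was at -0.45 and Mtor at 0.09 (adjusted p = 0.0552 and 0.555, edgeR).

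Of 14 FOXO factors and targets 2 rose and 12 were not called. Foxo1 encodes the FOXO factor best known from insulin signalling in liver. It had 47.0, 34.8, 42.8 and 39.9 CPM in 8 weeks 1 to 8 weeks 4, against 26.2, 28.7, 27.5 and 29.6 CPM in 1 week 1 to 1 week 4 (log2 fold change 0.56, adjusted p = 0.0188, SE 0.11). The groups were apart, yet the call was lost without 8 weeks 1, 8 weeks 3 or 1 week 1 (adjusted p = 0.064, 0.0604 and 0.0631, edgeR), and after the length and GC correction the log2 fold change was 0.29 (adjusted p = 0.0765). Bcl6, a repressor gene counted among FOXO targets, averaged 44.0 ± 7.50 CPM at 8 weeks and 30.1 ± 2.19 CPM at 1 week (SD, n = 4 each; log2 fold change 0.55, adjusted p = 0.03). It was still called after the length and GC correction (0.52, adjusted p = 0.0463), and of the 8 fits with a library left out only those without 8 weeks 2 or 1 week 4 called it (highest adjusted p = 0.0991, edgeR). Sesn3, a stress response gene and FOXO target, had a log2 fold change of 0.38 and was not called (adjusted p = 0.0563), and after the correction it was 0.12 (adjusted p = 0.403). After the length and GC correction 1 of the 70 pathway genes was called higher (Bcl6) and 1 lower (Ddit4). Of all 14520 genes in that fit 173 were called higher and 228 lower.

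**Figure D5:**
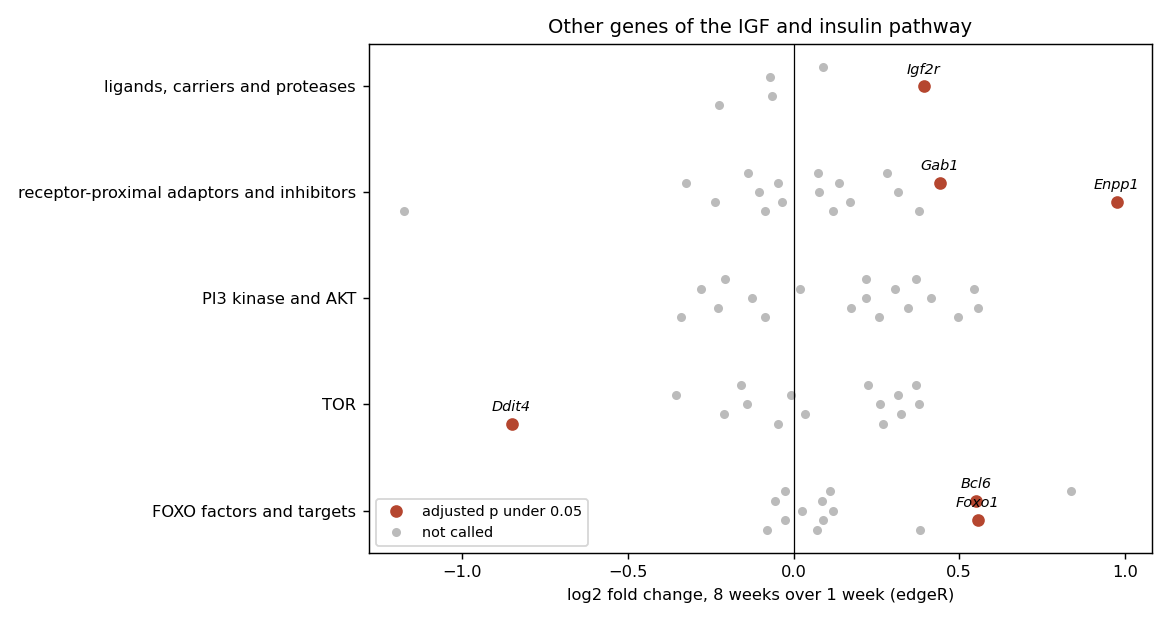
Log2 fold change (8 weeks over 1 week, edgeR) of the 70 tested genes in 5 lists of the IGF and insulin pathway; red points passed an adjusted p of 0.05 and are named, grey points did not. Igf2r, Gab1, Enpp1, Foxo1 and Bcl6 are on the higher side and Ddit4 on the lower side, and the grey points spread over both.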

How the data were processed

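Per the submitters' processing notes, reads were handled with bcl2fastq 2.20.0.422, cutadapt 2.10, TopHat2 2.1.1 and HTSeq 0.6.0 on GRCm38, and compared with DESeq2 1.26.0; the order and settings are not given in the sources used here. Per the labels' protocols, a stranded pico-input kit was used on total RNA after removal of rRNA. The deposited table held raw counts per gene and library and the authors' normalized signal (counts divided by a size factor per library), with the authors' log2 fold change, Wald score and p-value with its adjustment; 23355 genes had at least 10 counts in all. The test of the counts used edgeR 4.0.16 under R 4.3.3 (filterByExpr at 10 counts and a total of 15, TMM scaling, two-sided quasi-likelihood F test, Benjamini-Hochberg over 14533 genes, called under 0.05). The SE was derived from the F statistic. CPM used TMM-scaled libraries, and levels per kilobase used merged exons of GENCODE M21 on GRCm38, which held 99.8% of the genes. The length and GC correction fitted splines with 4 degrees of freedom to each library, for longest transcript length and for GC content, over genes with a mean log2 CPM above 2, and used them as an offset; some of the trend it removes may be age. Alternatives were other scalings and filters, DESeq2 1.42.0, limma-voom (limma 3.58.1), each library left out, blocks by replicate number or library name, and, chosen after seeing the data, the fit without 1 week 1, 8 weeks 1 and 8 weeks 3, the libraries with the steepest length slopes. The members, pathway lists and marker lists were chosen with earlier results of these data known. The genes named are all members, Igf1, Igf2 and Igf2r, the 3 tested genes with the smallest p of each pathway list with every gene called, and the 3 genes most like the member with the smallest p.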

Additional observations from a re-analysis of the deposited data

Results flagged for a closer look

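In groups of 4 libraries, a value was marked where its gap to the nearest other library was larger, as a share of the group's range, than Dixon's critical value, which chance gives in about 1 of 20 groups; here it was 6 of 94. In 1 week 4 the summed level of the 6 binding protein genes was 2092 CPM, against 2240 to 2246 CPM in the other libraries of 1 week. In 1 week 1 the ratio of Igfbp4 to Igfbp5 per kilobase was 0.46, against 0.28 to 0.29 in the others, and the summed fibroblast markers were 1175 CPM, against 936 to 966 CPM. Of that sum in 1 week 1, Dcn alone was 1158 CPM. Stc1 was lowest in 1 week 2, at 1.51 CPM against 2.85 to 3.07 CPM. Melanocyte markers summed to 3.83 CPM in 1 week 4, against 2.26 to 2.50 CPM in the others of 1 week, and T cell markers to 0.22 CPM in 8 weeks 2, against 0.91 to 0.97 CPM in the others of 8 weeks.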

How the results depend on the processing

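With all 8 libraries 484 genes were called higher and 468 lower at 8 weeks. These counts were 588 and 255 with library size alone, 327 and 265 with no filter, 987 and 1082 with DESeq2, 772 and 868 with limma-voom, and 173 and 228 with the length and GC correction. Leaving out 1 library gave 48 to 843 higher and 43 to 1048 lower, fewest without 8 weeks 3 and most without 8 weeks 2, and leaving out 1 week 1, 8 weeks 1 and 8 weeks 3 gave 0 and 0 by edgeR, with 1326 genes at an unadjusted p under 0.05. The count of members called higher, 1 with all libraries, was 0 with the length and GC correction and 0 without those 3 libraries, and 0 to 2 with 1 library left out. The count called lower, 0 with all libraries, was 1 with the size factors of DESeq2 in edgeR, 2 each with upper-quartile scaling, the stricter filter, DESeq2 and limma-voom, and 0 to 2 with 1 library left out. The sign turned for Irs1 with the correction (-0.14, and -0.11 together with the block) and with the block by library name (-0.0071), for Htra1 with library size alone (0.0194), with the correction (0.0491, and 0.0612 together with the block) and with 1 library left out (-0.156 to 0.023, above 0 without 1 week 4), and for Stc1 without the 3 libraries (0.077). The cause of these shifts was not tested. Libraries with the same replicate number did not deviate together (correlations of -0.31, -0.10, 0.00 and -0.10), and 0 of 4 correlated best with their own number. No pairing by number was seen, but with 4 libraries of each age these correlations cannot exclude one. With the replicate block 78 genes were higher and 83 lower, and 0 members were called higher; with the block and the correction 60 and 79, and 0 members; with the block by library name, which has 3 pairs, 26 and 66, and 0 members. Igfbp6, at 15 to 56 counts per library, had the widest SE of the members.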
